A study of Homo sapiens with 6 samples.

Results

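Integrins are the receptors through which cells hold on to laminin, collagen and fibronectin, and 10 human integrin subunit genes were followed here in xenograft tumors with and without the TRA2B-DNAH5 fusion. The genes were ITGA3, ITGA6 and ITGB4 of the laminin receptors, ITGA2 of the collagen receptor, ITGA4 and ITGA5 of the fibronectin receptors, ITGB1, the shared beta partner, and ITGAV, ITGB5 and ITGB8 of the receptors for ligands with an arginine-glycine-aspartate (RGD) motif. Every probe set that names exactly 1 of these genes was taken, which gave 40 of 49293 probe sets, and 0 probe sets named a member together with another gene. At the gene level these are 10 of 18132 genes.

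The tumors came from CRL-5889, an established human lung squamous carcinoma line, implanted in nude mice, which lack T cells, and collected after 4 weeks. In 3 tumors the cells had been transfected with TRA2B-DNAH5 (fusion tumors) and in 3 with the vector (vector tumors), and each tumor was hybridised to 1 Affymetrix array. The labels do not say whether the transfected cells were a pool or a clone, which promoter drove the fusion or which mouse carried which tumor. Anything else that set the 2 transfected populations apart cannot be told apart from the fusion, and p-values measure the spread between tumors, which may be technical. In a tumor, fewer cells of a type and less RNA per cell cannot be told apart either.

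An integrin is a heterodimer of 1 alpha and 1 beta chain. The alpha chain largely sets the ligand, and the beta chain joins the receptor to the cytoskeleton, to actin through talin and kindlin for most beta chains and to keratin filaments through plectin for ITGB4. In stratified and airway epithelia, alpha-6 beta-4 anchors basal cells to laminin in hemidesmosomes, while the beta-1 integrins serve adhesion and migration.

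Levels are the deposited log2 probe set values, so a step of 1 is a doubling, and levels of different genes cannot be ranked against each other. A gene was represented by its most abundant probe set and tested when the mean of that probe set over the 6 tumors reached a log2 level of 4.94, the 30th percentile of all probe sets. By this filter 9 of the 10 genes and 30 of the 40 probe sets were tested, and ITGB8 was not. Vector tumor 1 stood apart from the other 5 arrays (first principal component score 30.1, against -8.58 to -3.68, with 45.1% of the variance). Several results are therefore also given without that tumor, and values with no such statement include it. Median log2 levels of the arrays ran from 6.34 to 6.39 in fusion tumors and from 6.27 to 6.37 in vector tumors. Of the squamous markers, KRT5 and KRT14 averaged 5.06 and 5.71 in fusion tumors and 5.19 and 5.70 in vector tumors, DSG3 and DSC3 were below the filter level, and SOX2 averaged 8.82 in fusion tumors and 9.65 in vector tumors. KRT6A, KRT17 and TP63 were not analysed here.

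No integrin gene passed an adjusted p of 0.05. By limma with Benjamini-Hochberg adjustment over 13694 genes, 0 of 9 members were called, beside 10 genes or 0.073% of all tested (0.0584% with higher and 0.0146% with lower values in fusion tumors). By limma over 31666 probe sets, 0 of 30 member probe sets were called, beside 0.0158% of all. At an unadjusted p below 0.05 there were 3 member genes, ITGA6 and ITGA4 with higher values in fusion tumors (3.16% of all genes in this direction) and ITGA2 with lower values (2.73%), beside 5.89% of all genes in both directions. These 3 were also the members whose groups did not overlap, which held for 11.7% of all genes (5.94% with every fusion tumor above every vector tumor, 5.74% below). Among the 30 tested probe sets, 4 had every fusion tumor above every vector tumor (6.51% of all probe sets) and 1 had every fusion tumor below (5.06%). At an unadjusted p below 0.05 there were 5 of the 30 (5.71% of all probe sets, 3.47% with higher and 2.24% with lower values). The median log2 fold change was 0.11 over the 9 members and 0.0020 over all genes tested, and 7 members lay above 0 and 2 below, beside 50.8% of all genes above 0.

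**Figure D1:**
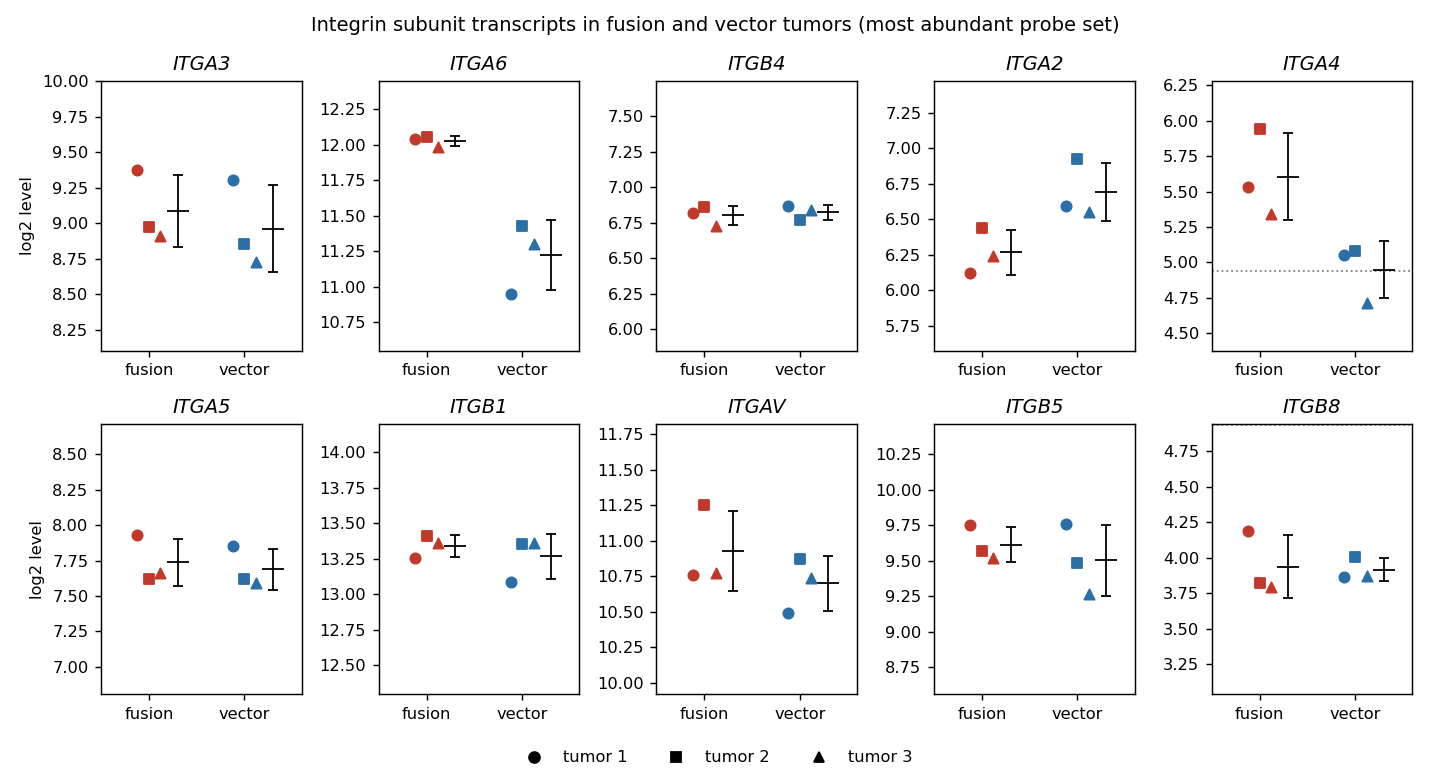
Log2 level of each integrin subunit transcript (vertical axis, most abundant probe set) in 3 fusion tumors (red, left) and 3 vector tumors (blue, right), with group mean and SD in black. Panels span the same log2 range, and the dotted line is the filter level of 4.94. ITGA6 and ITGA4 have every fusion tumor above every vector tumor, ITGA2 has every fusion tumor below, and the other 7 genes overlap.

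Among the laminin receptor subunits, ITGA6 had the largest difference of the members, while its partner ITGB4 had overlapping groups. ITGA6 encodes the alpha-6 chain, which binds laminins and pairs with beta-1 or beta-4. Its log2 level was 12.04, 12.05 and 11.98 in fusion tumors 1 to 3, against 10.95, 11.43 and 11.30 in vector tumors 1 to 3. The fusion tumors lay close together and above every vector tumor, and vector tumor 1 was the lowest of all. The means were 12.02 ± 0.036 in fusion tumors and 11.22 ± 0.25 in vector tumors (SD, n = 3 each), a 1.74-fold difference (log2 fold change 0.80, SE 0.13, 95% confidence interval 0.51 to 1.10, limma adjusted p = 0.127). ITGA6 ranked 21 of 13694 genes by p. The exact two-sided permutation p was 0.1, the smallest that 3 against 3 tumors can give.

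All 3 ITGA6 probe sets showed this pattern. The second had 10.82, 10.71 and 10.67 in fusion tumors and 9.79, 9.93 and 10.06 in vector tumors, the steadiest separation of the 3 (log2 difference 0.81, SE 0.11, limma adjusted p = 0.0799 over probe sets). The third had 9.26, 9.30 and 9.34 in fusion tumors and 7.88, 8.65 and 8.45 in vector tumors (0.97, SE 0.18, limma adjusted p = 0.286). In all 3, every fusion tumor lay above every vector tumor and vector tumor 1 was lowest. Without vector tumor 1 the difference in ITGA6 was smaller but less variable, with a log2 fold change of 0.66 (SE 0.088) and a limma adjusted p = 0.0402, past the threshold. Weighting the arrays by their quality gave 0.65 (SE 0.087, limma adjusted p = 0.0109) and called all 3 ITGA6 probe sets. The weights were estimated from these same arrays, so this is not an observation separate from the result without vector tumor 1. Leaving out any of the other 5 tumors gave a log2 fold change of 0.79 to 0.90, and the adjusted p for ITGA6 lay anywhere between 0.0109 and 0.592 across the alternatives.

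The ITGA6 promoter is printed because this gene had the smallest p of the members. RefSeq lists 2 starts in GRCh38.p14, and the 250 bases before the downstream one (chr2:172427336-172427585, plus strand) follow, with capitals marking the Sp1 core GGGCGG on either strand.
ITGA6: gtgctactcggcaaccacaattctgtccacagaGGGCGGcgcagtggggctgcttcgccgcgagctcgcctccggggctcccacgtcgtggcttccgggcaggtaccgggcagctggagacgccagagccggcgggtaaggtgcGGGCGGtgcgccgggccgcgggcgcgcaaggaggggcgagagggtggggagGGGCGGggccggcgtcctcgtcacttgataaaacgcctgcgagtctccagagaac
This window holds 3 matches to GGGCGG and 71.6% G and C bases, and the window before the upstream start (chr2:172427086-172427335) holds 0 matches and 50.8%. The core is found in 42.6% of 35116 RefSeq promoter windows of the same length. The AP-1 motif TGANTCA, which occurs in 6.57% of those windows, was not found on either strand in any of the 13 windows listed for the 8 members that the table holds. ITGA3 and ITGB4 were not matched. A match is a description of the letters only.

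ITGB4, the beta-4 chain with the long cytoplasmic tail of hemidesmosomes, had log2 levels of 6.82, 6.86 and 6.73 in fusion tumors and 6.87, 6.77 and 6.84 in vector tumors. The groups overlapped and the tumors differed little (log2 fold change -0.022, 95% confidence interval -0.22 to 0.18, limma adjusted p = 0.991). Its 8 probe sets, of which 7 were tested, gave log2 differences of -0.17 to 0.045, 6 below 0 and 2 above, and none separated the groups. ITGA3, the alpha-3 chain that binds laminins with beta-1, had 9.38, 8.97 and 8.91 in fusion tumors and 9.31, 8.85 and 8.73 in vector tumors. The tumor numbered 1 was the highest in each group, and the groups overlapped (log2 fold change 0.12, 95% confidence interval -0.28 to 0.53). The other 2 ITGA3 probe sets gave log2 differences of 0.24 and -0.0095, with overlapping groups.

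**Figure D2:**
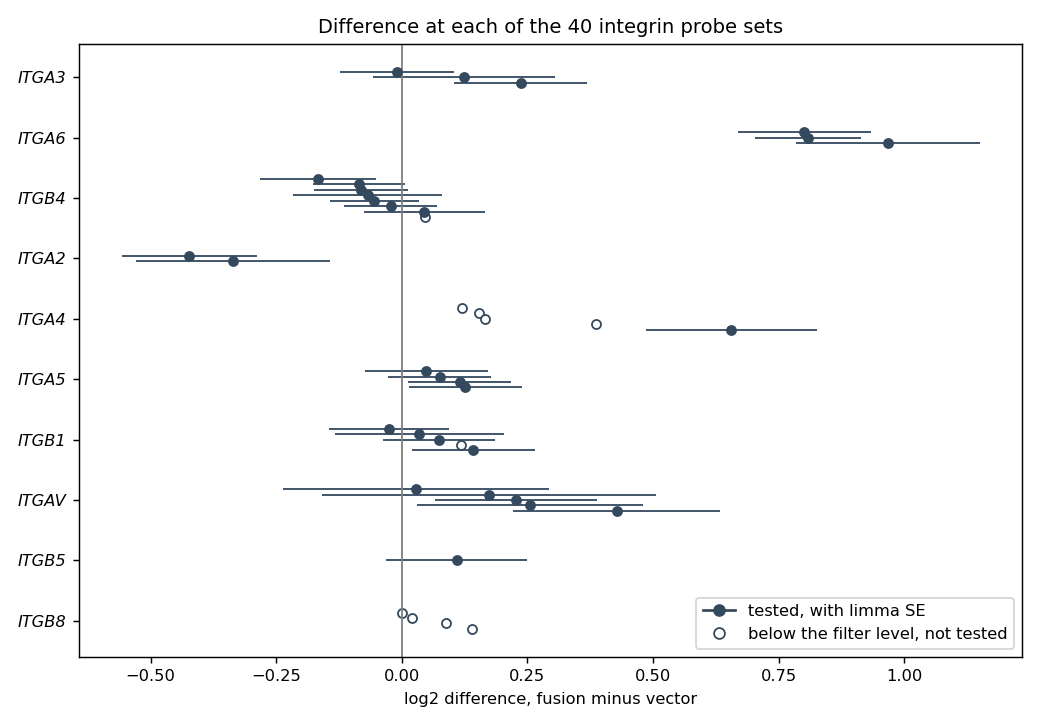
Log2 difference, fusion minus vector (horizontal axis), at each of the 40 probe sets of the 10 integrin genes (rows). Filled points with bars are the 30 tested probe sets with limma's SE, and open points are the 10 below the filter level. The 3 ITGA6 probe sets lie between 0.80 and 0.97, the 8 ITGB4 probe sets between -0.17 and 0.045, and both ITGA2 probe sets below 0.

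The collagen receptor subunit ITGA2 was the member with the lowest fold change. ITGA2 encodes the alpha-2 chain, which pairs with beta-1 and binds collagens. Its log2 level was 6.12, 6.44 and 6.24 in fusion tumors and 6.59, 6.92 and 6.55 in vector tumors. Each fusion tumor lay below each vector tumor, by a narrow margin between fusion tumor 2 and vector tumor 3. The log2 fold change was -0.42 (SE 0.13, 95% confidence interval -0.72 to -0.12, limma adjusted p = 0.601). The second ITGA2 probe set had 4.90, 5.29 and 5.13 in fusion tumors and 5.28, 5.88 and 5.16 in vector tumors, so there fusion tumor 2 lay above 2 vector tumors (log2 difference -0.34, limma adjusted p = 0.941). The log2 fold change was -0.47 without vector tumor 1 and stayed between -0.52 and -0.31 over all settings, with no call in any of them. The 250 bases before the ITGA2 start are shown because ITGA2 had the opposite sign to ITGA6 (GRCh38.p14, chr5:52989102-52989351, plus strand, same capitals).
ITGA2: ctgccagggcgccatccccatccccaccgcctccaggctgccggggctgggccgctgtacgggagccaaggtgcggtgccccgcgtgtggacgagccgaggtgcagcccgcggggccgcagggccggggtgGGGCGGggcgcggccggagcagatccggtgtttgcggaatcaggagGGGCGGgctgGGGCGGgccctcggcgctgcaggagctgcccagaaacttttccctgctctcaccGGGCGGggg
This window holds 4 matches to GGGCGG and 76.4% G and C bases.

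The fibronectin receptor subunits differed from each other. ITGA4 encodes the alpha-4 chain, which binds fibronectin and the vascular adhesion molecule VCAM1 and is best known from leukocytes. Its log2 level was 5.53, 5.94 and 5.34 in fusion tumors and 5.05, 5.08 and 4.72 in vector tumors. All fusion tumors lay above all vector tumors, but close to the filter level of 4.94. The means were 5.61 ± 0.30 in fusion tumors and 4.95 ± 0.20 in vector tumors (SD, n = 3 each). The log2 fold change was 0.66 (SE 0.17, 95% confidence interval 0.27 to 1.04, limma adjusted p = 0.404). The other 4 ITGA4 probe sets were below the filter level, at group means of 3.11 to 3.88, with log2 differences of 0.12 to 0.39, and 1 of them separated the groups. At such levels a fold can be understated, and the value of ITGA4 rests on 1 probe set. Without vector tumor 1 its log2 fold change was 0.71 (limma adjusted p = 0.242), and over all settings that tested it the range was 0.49 to 0.79. With the mean of its probe sets or the 50th percentile filter ITGA4 was too dim to be tested. The 250 bases before its start (GRCh38.p14, chr2:181457136-181457385, plus strand) hold 0 matches to GGGCGG and are shown because its groups did not overlap.
ITGA4: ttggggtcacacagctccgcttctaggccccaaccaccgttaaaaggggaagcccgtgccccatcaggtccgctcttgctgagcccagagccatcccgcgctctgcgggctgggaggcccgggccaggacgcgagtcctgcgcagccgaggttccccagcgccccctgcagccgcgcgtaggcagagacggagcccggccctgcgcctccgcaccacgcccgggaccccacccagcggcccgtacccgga

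ITGA5, the alpha-5 chain of the classical fibronectin receptor, had 7.93, 7.62 and 7.66 in fusion tumors and 7.85, 7.62 and 7.59 in vector tumors. The groups overlapped, again with the tumor numbered 1 highest in each (log2 fold change 0.049, 95% confidence interval -0.22 to 0.32, limma adjusted p = 0.983). Its 4 probe sets gave log2 differences of 0.049 to 0.13.

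ITGB1, the beta-1 chain that most alpha chains share, had 13.26, 13.41 and 13.36 in fusion tumors and 13.09, 13.35 and 13.36 in vector tumors. Vector tumor 1 was lowest at all 5 ITGB1 probe sets. The log2 fold change was 0.074 (SE 0.11, 95% confidence interval -0.17 to 0.32) with all tumors and -0.017 without vector tumor 1. The 5 probe sets gave log2 differences of -0.025 to 0.14, with overlapping groups in each.

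The RGD receptor subunits overlapped between the groups. ITGAV, the alpha-v chain that binds vitronectin and latent TGF-beta, had 10.76, 11.25 and 10.77 in fusion tumors and 10.49, 10.87 and 10.74 in vector tumors. Fusion tumor 2 was the highest tumor at all 5 ITGAV probe sets. The log2 fold change was 0.23 (SE 0.16, 95% confidence interval -0.13 to 0.59, limma adjusted p = 0.962), and 0.066 without fusion tumor 2. ITGB5, a partner of alpha-v for vitronectin, had 9.75, 9.57 and 9.52 in fusion tumors and 9.76, 9.48 and 9.27 in vector tumors at its only probe set (log2 fold change 0.11, 95% confidence interval -0.20 to 0.42). ITGB8, a partner of alpha-v that activates TGF-beta, was below the filter level at all 4 probe sets, with group means of 3.16 to 3.93 and log2 differences of -0.00031 to 0.14. At its most abundant probe set ITGB8 had 4.19, 3.82 and 3.79 in fusion tumors and 3.86, 4.01 and 3.87 in vector tumors, which gives no order at this level.

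Because integrin chains are used in pairs, the alpha minus beta difference of 9 known heterodimers was computed in each tumor and set relative to its mean in vector tumors. The ITGA6 to ITGB4 difference was 0.82, 0.79 and 0.86 in fusion tumors and -0.32, 0.26 and 0.060 in vector tumors. The fusion tumors lay together and above all vector tumors, a difference of 0.82 log2 units with all tumors and 0.66 without vector tumor 1. The ITGA6 to ITGB1 difference was 0.83, 0.69 and 0.67 in fusion tumors and -0.096, 0.12 and -0.021 in vector tumors. This pair separated the groups as well (0.73), and the separation without vector tumor 1 was 0.68. ITGA4 to ITGB1 (0.58, and 0.23 with the mean of the probe sets of each gene) and ITGA2 to ITGB1 (-0.50) also had groups that did not overlap, and the other 5 pairs overlapped, with differences of -0.025 to 0.21. The exact two-sided permutation p was 0.1 for these 4 pairs, the smallest possible, and from 0.4 to 0.8 for the other 5. Each of these 4 pairs holds ITGA6, ITGA4 or ITGA2, whose own groups did not overlap. They therefore restate those genes and are not separate observations. A ratio within an array shows unequal change of 2 chains and not that either one stayed constant.

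**Figure D3:**
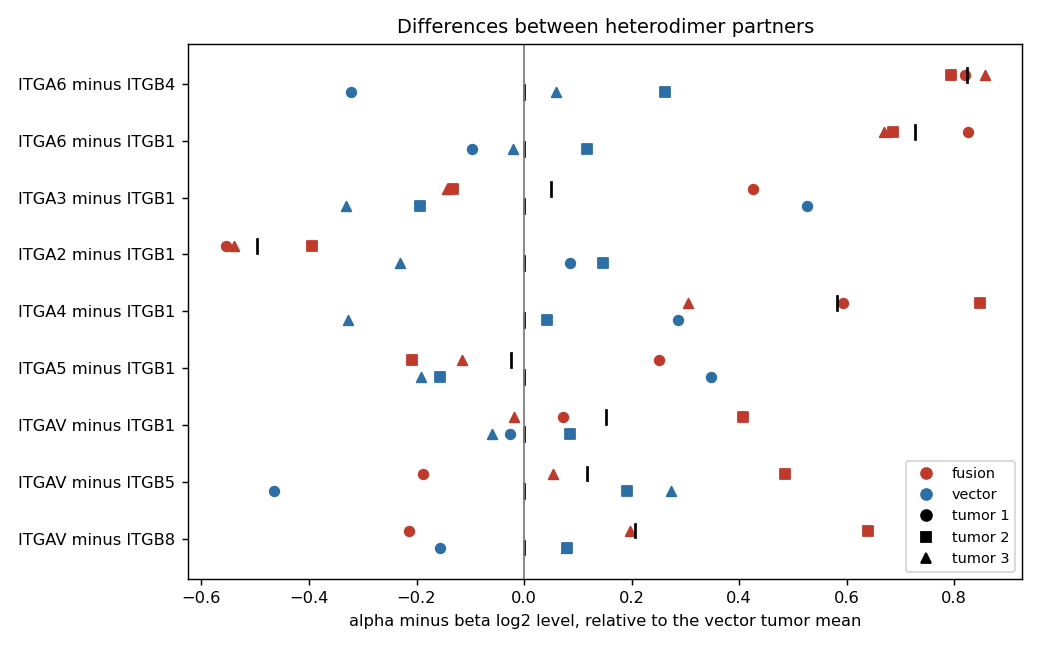
Alpha minus beta log2 level for 9 heterodimers (rows), relative to the mean of the vector tumors (horizontal axis), with fusion tumors in red above vector tumors in blue and group means as black ticks. ITGA6 minus ITGB4 and ITGA6 minus ITGB1 place the 3 fusion tumors between 0.67 and 0.86, above all vector tumors.

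By centred log2 values over the 6 tumors, the 3 tested genes nearest to ITGA6 were DNM1, TEX15 and TFAP2A, with root mean square differences of 0.095, 0.097 and 0.10 log2 units. DNM1, the dynamin of synaptic vesicle endocytosis, had 6.65, 6.65 and 6.65 in fusion tumors and 5.50, 6.20 and 6.12 in vector tumors. Vector tumor 1 was lowest as in ITGA6, which follows from choosing genes by likeness to it. Nearest to ITGA4 were CDK6, BDNF and UAP1 (0.13, 0.15 and 0.15). CDK6, a kinase of the G1 phase, had 9.88, 10.11 and 9.86 in fusion tumors and 9.41, 9.47 and 9.28 in vector tumors. None of these 6 genes passed (limma adjusted p from 0.239 to 0.376).

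The laminin chains, ligands of alpha-6 and alpha-3, were led by LAMA4. Of 8 tested chains 0 passed, 8 lay above 0 and the median log2 fold change was 0.13, with 6 above 0 without vector tumor 1. LAMA4, the alpha-4 laminin chain of vascular and mesenchymal basement membranes, had 8.47, 7.45 and 8.28 in fusion tumors and 6.94, 6.81 and 6.60 in vector tumors. The groups were apart but fusion tumor 2 was well below the other fusion tumors (log2 fold change 1.28, SE 0.24, limma adjusted p = 0.236). LAMC3, LAMA2 and LAMB3, further laminin chains, had log2 fold changes of 0.33, 0.18 and 0.12. Among 3 tested hemidesmosome genes, DST, which encodes the plakin dystonin, had 0.15, LAMB3 0.12 and PLEC, the plakin that binds beta-4, 0.098, and only LAMB3 was above 0 without vector tumor 1. The value of DST is that of its most abundant probe set. Of its 8 probe sets 2 others had every fusion tumor above every vector tumor, with log2 differences of 0.89 and 0.42. Over all tested probe sets this held for 6.51%.

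Collagens, ligands of alpha-2 beta-1, lay on both sides. Of 9 tested genes 0 passed, 7 lay above 0 (5 without vector tumor 1) and the median was 0.20 (0.015 without it). The basement membrane collagens COL4A2 and COL4A1 had log2 fold changes of -0.95 (SE 0.16, limma adjusted p = 0.127) and -1.17 (SE 0.37, limma adjusted p = 0.614). COL4A2 had 6.14, 6.50 and 6.47 in fusion tumors and 7.28, 7.61 and 7.07 in vector tumors, so the groups were apart. Its further probe sets gave log2 differences of -0.38, with the groups apart, and -0.11, with overlapping groups. COL4A1 had 5.68, 7.19 and 6.97 in fusion tumors and 7.43, 8.17 and 7.74 in vector tumors. Its groups were apart, with fusion tumor 1 well below the other fusion tumors. A further tested COL4A1 probe set gave -0.62, with the groups apart. Another, below the filter level, gave 0.084, with overlapping groups. The fibrillar collagens COL1A1 and COL1A2 had 0.65 and 0.24 (limma adjusted p = 0.593 and 0.708). The further COL1A1 probe sets gave log2 differences of -0.050 to 0.15 with overlapping groups. The further COL1A2 probe sets were below the filter level. Among 13 tested ligands of the fibronectin and RGD receptors 0 passed, 4 lay above 0 and 9 below (median -0.026). The latent TGF-beta binding protein LTBP1 had -0.84, the microfibril protein FBN1 -0.50, the matricellular protein POSTN 0.27 and fibronectin itself, FN1, 0.20. Without vector tumor 1 these were -0.55, -0.61, 0.096 and 0.24.

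Inside the cell, 31 adhesion plaque genes were tested and 0 passed, with 19 above 0 and 12 below (median 0.041). PXN, the scaffold paxillin, had 11.74, 11.70 and 11.81 in fusion tumors and 11.16, 11.34 and 11.36 in vector tumors. All fusion tumors lay above all vector tumors (log2 fold change 0.47, SE 0.095, limma adjusted p = 0.254, and 0.154 without vector tumor 1). PARVA, the actin-binding partner of the integrin-linked kinase, had 0.45, LIMS2, another partner of that kinase, -0.19 and TLN2, a talin, -0.21. Of 16 membrane partners and trafficking genes 0 passed and 11 lay above 0 (median 0.066, and 13 above 0 without vector tumor 1). CD47, an integrin-associated receptor for thrombospondin, had 11.49, 11.46 and 11.66 in fusion tumors and 11.24, 10.91 and 10.47 in vector tumors. Its groups were apart at all 3 probe sets (log2 fold change 0.67, limma adjusted p = 0.462, and 0.0768 without vector tumor 1). The tetraspanins CD9 and CD81 had 0.22 and -0.15, and SLC3A2, the heavy chain that binds beta-1, 0.19.

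Of the other integrin subunits 11 were tested and 0 passed, with 5 above 0 and 6 below (median -0.014), and 3 above 0 without vector tumor 1. ITGAE, the alpha-E chain that binds E-cadherin, had 10.45, 10.54 and 10.60 in fusion tumors and 11.07, 10.81 and 10.71 in vector tumors, with the groups apart (log2 fold change -0.33, limma adjusted p = 0.683). Without vector tumor 1 the log2 fold change of ITGAE was -0.23. ITGA2B, the platelet alpha chain, had -0.097, ITGA11, a collagen-binding alpha chain, 0.085 and ITGB2, the leukocyte beta chain, -0.092. ITGB6 was not analysed here.

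**Figure D4:**
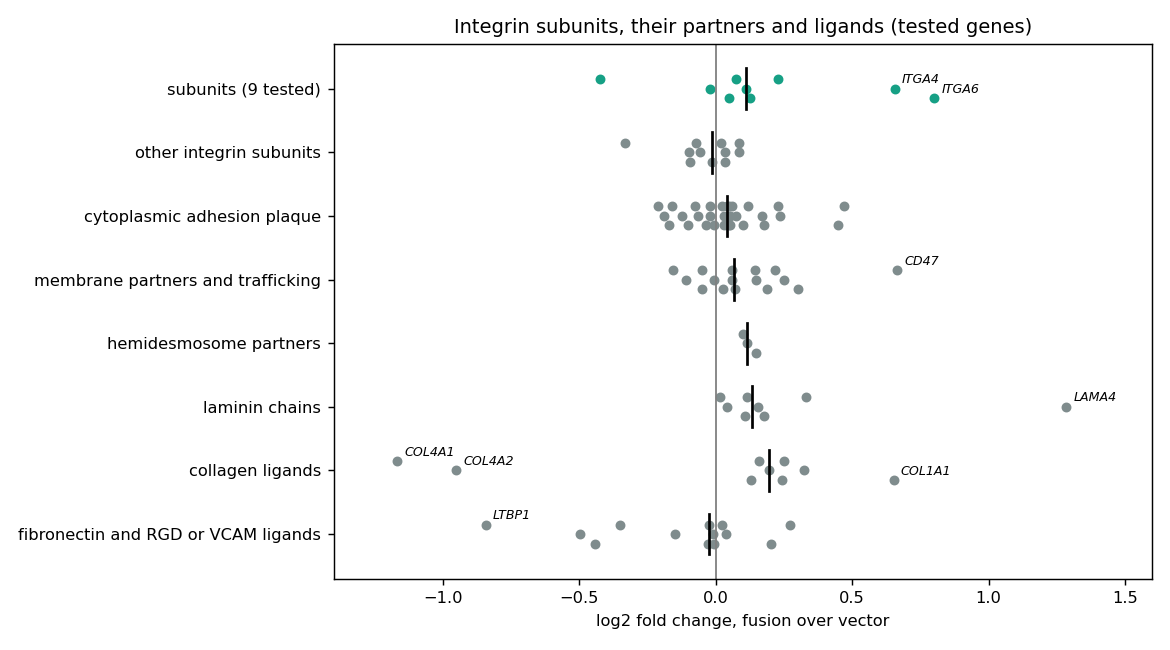
Log2 fold change, fusion over vector (horizontal axis), of every tested gene in the integrin subunit set and in 7 lists of partners and ligands (rows), with list medians as black ticks and genes beyond 0.6 named. No gene shown passed an adjusted p of 0.05. LAMA4 at 1.28 and COL4A1 at -1.17 are the extremes, and list medians lie between -0.026 and 0.20.

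Several members are also made by host or stromal cell types, and mouse RNA was not told apart on these human arrays. Of 10 leukocyte markers 6 were tested, 3 above 0 and 3 below. The linear signal of all 10 summed to 768 to 839 in fusion tumors and 632 to 671 in vector tumors, and CD68 alone carried this difference. CD68, a lysosomal protein, had log2 levels of 8.73, 8.31 and 8.50 in fusion tumors and 7.78, 7.68 and 7.69 in vector tumors. The other 9 markers summed to 415 to 451 in fusion tumors and 427 to 459 in vector tumors. Among them, TYROBP, a leukocyte signalling adaptor, was lower in every fusion tumor (log2 fold change -0.13). CSF1R was higher in every fusion tumor at its most abundant probe set (log2 fold change 0.17). A further tested CSF1R probe set overlapped between the groups (log2 difference 0.012). Another, below the filter level, was lower in every fusion tumor (-0.23). The pan-leukocyte marker PTPRC was below the filter level, at 3.80 to 3.89 in fusion tumors and 3.78 to 3.99 in vector tumors, and so was CD14. Of 10 endothelial markers 8 were tested, 6 above 0, and all 10 summed to 962 to 1051 in fusion tumors and 904 to 992 in vector tumors. Of 12 fibroblast markers 10 were tested, 7 above 0 and 3 below. At an unadjusted limma p below 0.05, 4 had higher values in fusion tumors (3.16% of all genes) and 1 had lower values (2.73%). All 12 summed to 10617 to 11521 in fusion tumors and 9083 to 13292 in vector tumors, most of it from PDGFRA. PDGFRA had log2 levels of 12.91, 13.08 and 13.06 in fusion tumors and 12.76, 13.31 and 13.41 in vector tumors. PDGFRB lay between 5.51 and 5.79 over both groups. Whether tumor or host cells made the PDGFRA signal was not tested, so it cannot be read as a measure of fibroblasts. The other 11 summed to 2772 to 2979 in fusion tumors and 2128 to 2685 in vector tumors, so here the groups were apart. Most of this sum came from THY1, at log2 levels of 10.36 to 11.03, with at most 8.70 for any other of the 11. The sum without THY1 was not computed. FAP, a protease of activated fibroblasts, had log2 levels of 7.37, 7.16 and 7.11 in fusion tumors and 6.52, 6.47 and 5.92 in vector tumors (log2 fold change 0.91, limma adjusted p = 0.202). THY1, a surface glycoprotein of fibroblasts and other cells, had 10.91, 10.84 and 11.03 in fusion tumors and 10.36, 10.71 and 10.63 in vector tumors (0.36, limma adjusted p = 0.641). The 3 tested fibroblast markers below 0 were FBN1 (-0.50, lower in every fusion tumor), PDGFRA (-0.15) and ACTA2 (-0.13). DCN and LUM were below the filter level. Of the squamous markers 5 were tested, 1 above 0 and 4 below, and all 7 with a probe set summed to 1135 to 1238 in fusion tumors and 1502 to 1825 in vector tumors. Most of this difference came from SOX2, which alone had a linear signal of 417 to 484 in fusion tumors and 606 to 1095 in vector tumors and passed without vector tumor 1 (limma adjusted p = 0.0440). The other 6 summed to 712 to 778 in fusion tumors and 730 to 896 in vector tumors, which overlap. Summed signals of simple epithelial, adipocyte, skeletal muscle and erythroid markers were 458 to 551, 1148 to 1225, 423 to 1438 and 221 to 264 in fusion tumors, against 473 to 504, 1223 to 1307, 540 to 1287 and 215 to 308 in vector tumors. Of the simple epithelial markers, EPCAM and CDH1 were below the filter level. Of 9 adipocyte markers 7 were tested, 2 above 0 and 5 below, with 0 above 0 without vector tumor 1. At an unadjusted limma p below 0.05, 3 adipocyte markers had lower values in fusion tumors (2.73% of all genes) and 0 had higher values (3.16%). The part of these cell types in the integrin differences was not tested.

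**Figure D5:**
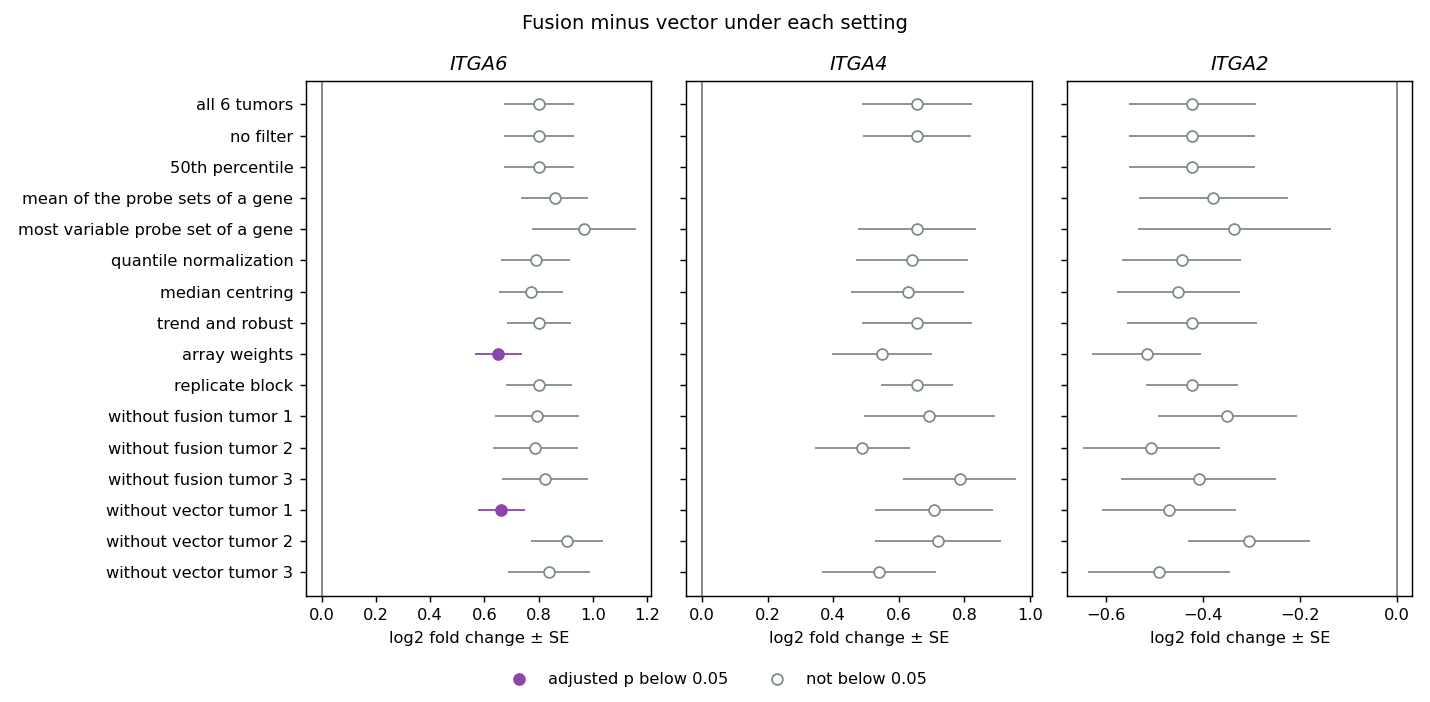
Log2 fold change, fusion over vector, with limma's SE (horizontal axis) of ITGA6, ITGA4 and ITGA2 with all 6 tumors and under each other setting (rows). Filled points have an adjusted p below 0.05. ITGA6 is filled without vector tumor 1 (0.66) and with array weights (0.65), and ITGA4 has no value where it was too dim to be tested.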

How the data were processed

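Per array, the deposited file holds 1 column of log2 values by probe set. The scale was read from the values. How the authors normalized and summarised the arrays is not given in the sources used here. Probe sets were named from the platform annotation: 44988 of 49293 name 1 gene, 1832 several, and 2473 are unnamed here. The RefSeq table of GRCh38.p14 held the gene of 44961 of these, and 0 symbols needed an update. Groups came from the sample titles.

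For each gene the probe set with the highest mean was used, and means below the 30th percentile (log2 4.94) were left out. The contrast of fusion minus vector was tested in R 4.3.3 by limma 3.58.1 (two-sided, no replicate term), adjusted by Benjamini-Hochberg over all genes or all probe sets. Exact permutation tests over 3 against 3 tumors cannot go below 0.1. The number of arrays limits the precision. The model was tested on simulated data. Alternatives covered the filter, probe set choice, normalization, variance model, array weights, replicate block, threshold and each tumor left out; list counts without vector tumor 1 were added after seeing the data. Named genes were the members, up to 4 per partner list by p, and 3 genes nearest to each of 2 members. Single markers are named from marker lists, and further probe sets are given for DST, CD47, COL1A1, COL1A2, COL4A1, COL4A2 and CSF1R. These were chosen after their values were seen, as was the split of each marker sum by its most different gene. Members and lists were chosen with earlier results of these data known. Promoters are RefSeq, GRCh38.p14, read 250 bases before the start. Input was read with the package data.table (version 1.17.8) and figures drawn with Python 3.11.15 and matplotlib 3.10.9.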

Additional observations from a re-analysis of the deposited data

How the results depend on the processing

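No integrin gene was called under any alternative except ITGA6, called with array weights and without vector tumor 1. Array weights called 1 integrin gene, 3 integrin probe sets (all ITGA6) and 140 genes in all. An adjusted p of 0.1 called 1 integrin probe set. With each tumor left out, 0 to 1 integrin genes, 0 integrin probe sets and 0 to 37 genes in all were called, against 10 with all 6. Leaving out fusion tumor 1 gave 0, vector tumor 1 gave 37, and each other tumor gave 3. The 37 held all 10. Counts over all genes were 1 with the 50th percentile filter, 16 with the mean of probe sets, 6 with the most variable probe set and 2 at an adjusted p of 0.01. Why the counts moved was not tested.

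Signs of small differences depended on single tumors. With 1 tumor left out, log2 fold changes ran from -0.021 to 0.30 for ITGA3, -0.046 to 0.13 for ITGA5, -0.017 to 0.12 for ITGB1, -0.051 to 0.014 for ITGB4 and -0.0091 to 0.24 for ITGB5. Pair differences ran from -0.14 to 0.31 for ITGA3 to ITGB1, -0.16 to 0.15 for ITGA5 to ITGB1, -0.12 to 0.27 for ITGAV to ITGB5 and -0.0092 to 0.42 for ITGAV to ITGB8. The ITGA5 to ITGB1 difference was also 0.023 with the mean of probe sets and 0.014 with the most variable probe set, against -0.025. With the mean of probe sets ITGA4 to ITGB1 was 0.23, against 0.58, and with the most variable probe set ITGA6 to ITGB4 was 1.04, against 0.82, and ITGA6 to ITGB1 0.93, against 0.73. ITGA6, ITGA4, ITGA2 and ITGAV kept their sign in every setting that tested them.

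The tumors share replicate numbers, but same-numbered deviations correlated at 0.097, 0.17 and 0.051 for numbers 1 to 3, so the numbers were not taken to pair the tumors. Each tumor correlated best with its own number, a hint from the data only. The replicate block called 0 integrin genes, 0 integrin probe sets and 8 genes in all, with ITGA6 at a limma adjusted p = 0.141.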

Other observations

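ITGA6, ITGA4 and ITGAV lie in this order along chromosome 2, by the RefSeq gene table. The 41 other tested genes between ITGA6 and ITGAV had a median log2 fold change of 0.022 (fusion over vector), with 26 above 0 and 15 below, a range of -0.41 to 0.54, 3 at an unadjusted limma p below 0.05 and 0 past the threshold of adjusted p 0.05. ITGA6 at 0.80 and ITGA4 at 0.66 lay above the highest of these neighbours, and ITGAV at 0.23 within their range.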
